A study of Mus musculus with 2 samples.

Results

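Marginal zone B cells of the mouse spleen were picked out of single-cell counts by the RNA of 4 surface and membrane genes, and 481 of the 11600 B cells in 2 libraries met the rule. The gate counted unique molecular identifiers (UMIs), the tags that let each captured RNA molecule be counted once. A kept cell had at least 500 UMIs, at least 200 detected genes and under 10% mitochondrial UMIs, and a B cell had at least 3 UMIs of Cd79a, Cd79b and Ms4a1 together, none of Cd3d, Cd3e and Cd3g, and under 20 of Jchain. A gated cell then had at least 3 UMIs summed over Cr2, Cd1d1, Cd9 and Myof, none of Fcer2a and none of Bhlhe41. The wild-type library gave 299 gated cells among 6279 B cells and 9733 kept cells. The M694I knock-in library gave 182 among 5321 B cells and 8583 kept cells. The comparison set was B cells with at least 1 Fcer2a UMI and under 3 UMIs of the 4 genes, 2044 wild-type and 1554 knock-in cells, called Fcer2a B cells below. Bhlhe41 was not excluded from this set, and 153 (7.49%) and 80 (5.15%) of its cells held a Bhlhe41 UMI.

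The study profiled splenocytes of mice that carry the M694I change in Mefv (labelled M694I knock-in) and of controls with the unedited gene (labelled M694I WT), and asked how the immune cells of the spleen differ. Mefv codes for pyrin, a sensor of the innate immune system that can assemble an inflammasome. Spleens were broken up mechanically and red cells were lysed before droplet capture with 10x Genomics 3' chemistry (v3.1), and the 2 groups were matched for age. Each genotype is represented by 1 library whose title names 1 mouse, with no age, sex or strain in the labels used here. The library is therefore the only unit of comparison, no test was possible, and every interval below is an exact 95% interval that covers counting error only. Such an interval is too narrow wherever a few cells hold most of a gene's UMIs.

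Marginal zone B cells sit at the border of the white pulp, where blood leaves the arterial sinuses, and are known for fast IgM responses to blood-borne antigen. They carry much complement receptor CD21 (from Cr2) and the lipid-presenting molecule CD1d (from Cd1d1), and little of the IgE receptor CD23 (from Fcer2a), which marks follicular B cells. Their development depends on the receptor Notch2, whose cleaved form acts with the DNA-binding protein RBPJ, and their position on sphingosine-1-phosphate receptors, integrins and the chemokine receptors that draw other B cells into follicles.

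The kept cells held 31526374 UMIs in the wild-type library and 24739648 in the knock-in library. The libraries had 27 barcodes in common. Of these, 2 lay among the gated cells of each library, and 0 were gated in both. Mefv gave 3 UMIs in the gated cells of each library, and the edit itself cannot be read from counts. The gated cells were deep, with medians of 4632 and 4325 UMIs per cell in the wild-type and knock-in libraries against 2410 and 1897 in Fcer2a B cells. Gate and depth are therefore linked, since a deeper cell has more chances to reach 3 UMIs. Levels are given in CPM, the UMIs of a gene per 1000000 UMIs summed over a set of cells, and rest on 1543632 and 904796 UMIs of gated cells and 6094642 and 3780270 of Fcer2a B cells.

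The cells were selected on the UMIs of the gate genes, whose values are therefore given as a description only. Cd9, which codes for a tetraspanin, was found in 85.3% of wild-type and 83.5% of knock-in gated cells. Cr2 was found in 56.5% and 54.9%, Cd1d1 in 38.5% and 36.8%, and Myof, the gene of the membrane-repair protein myoferlin, in 35.5% and 21.4%. Cd9 supplied most of the UMIs, at 634 and 590 CPM against 213 and 206 for Cr2. Of the 4 it also had the highest share in T cells, 14.6% and 17.2% of which held a Cd9 UMI, against 0.222% and 0.449% for Cr2 (T cells had at least 3 UMIs of the Cd3 genes and none of the B cell genes).

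Most gated cells rested on more than 1 gene. In the wild-type library 67, 131, 88 and 13 cells had 1, 2, 3 and 4 of the genes, and in the knock-in library 60, 74, 42 and 6. Cells with a single gene made up 22.4% and 33.0%, and in 56 of the 67 and 49 of the 60 that gene was Cd9. The B cell label held in both libraries: of the marker genes of B cells as a class outside the gate that are given here (Pax5, Ebf1 and Cd22), 0 of 3 were at 0, and 99.7% and 98.9% of gated cells had a UMI of at least 1. Of the 6 marginal zone markers outside the gate (Dtx1, S1pr3, Fcrl5, Mzb1, Cd36 and Asb2), 0 were at 0. Their summed level was 777 and 996 CPM in gated cells against 262 and 371 CPM in Fcer2a B cells. Mzb1 led this sum in every set, at 464 and 778 CPM in gated cells and 203 and 311 CPM in Fcer2a B cells. The sum is therefore mostly a reading of Mzb1.

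The upstream DNA of the gate genes and of Cd36, the leading gene of the results below, is shown because RBPJ, the DNA-binding partner of cleaved Notch2, is known to bind the core letters TGGGAA. Capitals mark those letters in 60 bases upstream of the start site, on the sense strand of each gene, from RefSeq on GRCm38.p6. The Cr2 stretch is chr1:195176907-195176966, the Cd9 stretch chr6:125494939-125494998 and the Cd36 stretch chr5:17835907-17835966, all on the minus strand, with the letters 220, 211 and 43 bases before the start site.
Cr2: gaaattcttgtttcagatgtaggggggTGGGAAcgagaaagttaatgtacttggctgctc
Cd9: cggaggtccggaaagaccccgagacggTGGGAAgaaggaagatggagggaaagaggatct
Cd36: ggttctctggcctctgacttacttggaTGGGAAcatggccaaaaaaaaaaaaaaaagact
In Cr2 and Cd9 the letter before the motif was G, which gives the longer form GTGGGAA.

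The motif was searched on both strands in the 250 bases before each start site, and GTGGGAA holds TGGGAA within it. TGGGAA occurred in 21.6% of all 32851 windows and in 24.1% of the 27025 genes with a window. It occurred in 2 of the 3 gate genes with a window, Cr2 and Cd9; Cd1d1 was not matched. GTGGGAA occurred in 5.42% of all windows and in the same 2 gate genes. Among the 10 genes named below as higher in gated cells TGGGAA occurred in 3 of the 9 matched (Ankrd33b, Cd36 and Ptpn22), and among the 10 named as lower in 1 of the 9 matched (Slfn2). The longer GTGGGAA occurred in 1 and 0 of them. Ahr and Hvcn1 were not matched. A match describes these letters and says nothing of whether a factor binds there.

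Gated cells made up 4.76% of B cells in the wild-type library (95% exact Clopper-Pearson interval 4.25% to 5.32%) and 3.42% in the knock-in library (2.95% to 3.94%), a log2 ratio of -0.48 (-0.75 to -0.21). After thinning to equal depth the gap was within counting error. With every B cell thinned to 1000 UMIs before gating, and 21 and 111 shallower B cells left out, 39 of 6258 wild-type B cells (0.623%, 0.444% to 0.851%) and 32 of 5210 knock-in B cells (0.614%, 0.420% to 0.866%) met the rule, a log2 ratio of -0.02 (-0.74 to 0.69). Few cells remain in that comparison, and its interval holds the unthinned ratio. B cells were chosen on all their UMIs, and only the limits on the 4 genes, Fcer2a and Bhlhe41 were applied after thinning. A cell that lost its Fcer2a or Bhlhe41 UMIs by thinning could therefore enter. At a limit of 2 gate UMIs the same thinned cells gave 154 and 103 cells (2.46% and 1.98%), a log2 ratio of -0.32 (-0.69 to 0.05), against -0.27 (-0.48 to -0.07) without thinning. Among B cells of 3000 to under 8000 UMIs the log2 ratio was -0.12. At a matched 1000 UMIs the libraries were thus not separated beyond counting error at either limit, and neither interval excludes a gap of the unthinned size.

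The share climbed with depth within both libraries. From 2000 to under 3000 UMIs it was 1.23% (0.844% to 1.73%) of wild-type and 2.49% (1.66% to 3.58%) of knock-in B cells. From 4000 to under 5000 UMIs it was 17.1% (13.9% to 20.6%) and 13.3% (9.58% to 17.8%), and at 7000 UMIs or more 17.6% (12.8% to 23.2%) and 15.8% (10.5% to 22.5%). The knock-in share was the higher of the pair from 2000 to under 4000 UMIs and the lower from 4000 UMIs on. In the bin from 2000 to under 3000 UMIs the log2 ratio was 1.02 (0.23 to 1.79), beyond counting error toward the knock-in library. The shallower depth of the knock-in B cells, a median of 1877 against 2374 UMIs, moved with the lower overall share.

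**Figure D1:**
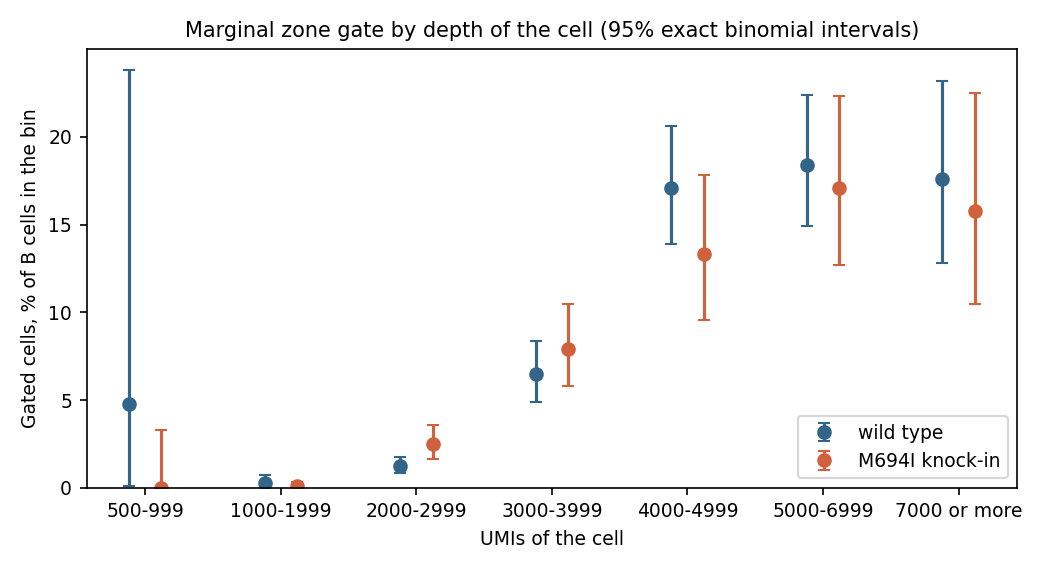
Share of B cells that met the marginal zone gate (vertical axis, percent) in bins of UMIs per cell (horizontal axis), for the wild-type and knock-in libraries, with exact 95% binomial intervals. The share was at most 2.49% from 1000 to under 3000 UMIs and reached 13.3% to 18.4% from 4000 UMIs on. The separate intervals of the libraries overlapped in every bin. From 2000 to under 3000 UMIs, however, the interval of their log2 ratio (1.02, 0.23 to 1.79) excluded equal shares.

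The count of UMIs that a cell had to reach also set the size of the gap. With at least 2 UMIs of the 4 genes the shares were 7.61% and 6.31% (log2 ratio -0.27, -0.48 to -0.07), and with at least 5 they were 2.42% and 1.35% (-0.84, -1.26 to -0.43). Just inside the limit, 95 wild-type and 74 knock-in cells had exactly 3 UMIs. Just outside it, 179 and 154 cells with neither Fcer2a nor Bhlhe41 had exactly 2. A further 121 and 70 B cells reached 3 UMIs but held Fcer2a, and 61 and 67 reached 3 UMIs but held Bhlhe41, a transcription factor of B-1 cells.

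Genes outside the rule differed on both sides of the limit of 3 UMIs. In wild-type B cells with neither Fcer2a nor Bhlhe41, Cd36 stood at 16.4, 21.9, 94.4 and 192 CPM in cells with 0, 1, 2 and 3 gate UMIs, and at 241 CPM in cells with 10 or more. In knock-in B cells the same levels were 9.08, 39.9, 93.1 and 81.7 CPM, and 205 CPM. Cells with 2 UMIs, which the rule leaves out, thus already carried Cd36 at several times the level of cells with none. Cd200 dropped at the limit in wild-type cells, with 153, 116, 105 and 30.0 CPM at 0, 1, 2 and 3 UMIs, while knock-in cells had 84.5, 61.3, 48.1 and 55.4 CPM. Ighd went the other way from Cd36, from 561 to 97.0 CPM in wild-type cells and from 564 to 189 CPM in knock-in cells between 0 and 10 or more UMIs. These bins also differ in depth, with medians of 2157.5 and 1656 UMIs per cell at 0 gate UMIs and 6443 and 4744 at 10 or more.

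**Figure D2:**
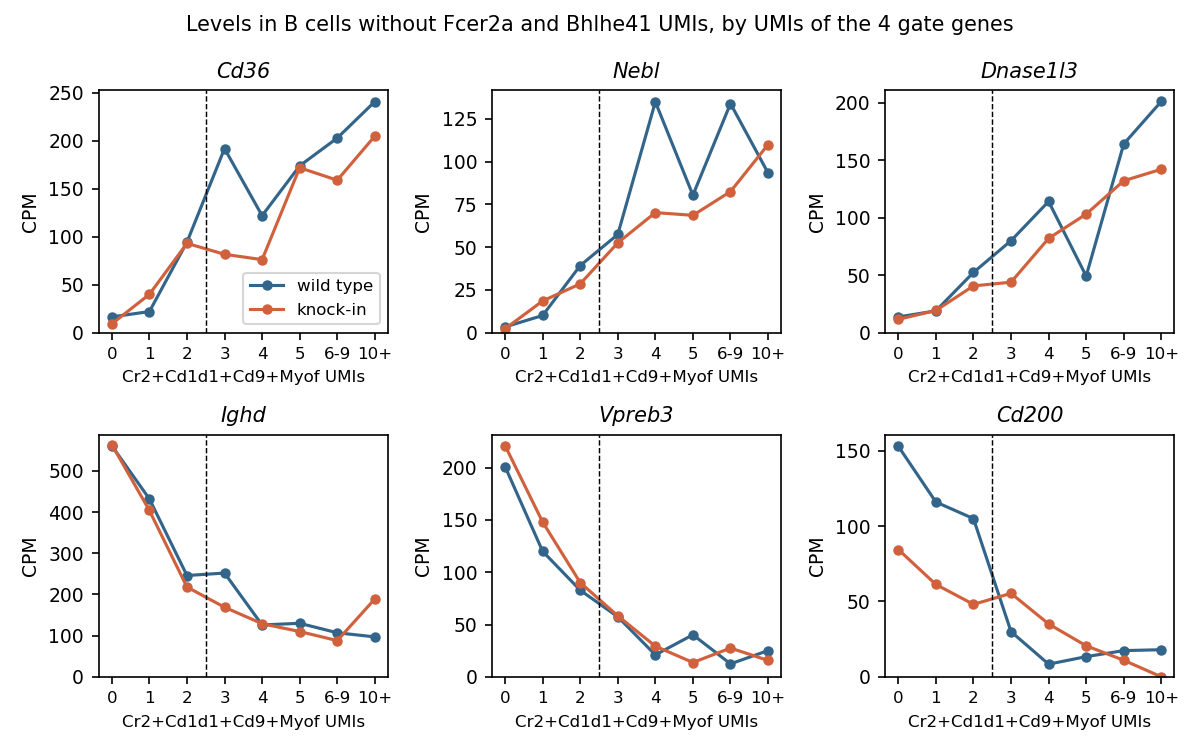
Level in CPM (vertical axes) of 6 genes that the gate did not use, in B cells without Fcer2a and Bhlhe41 UMIs, against the summed UMIs of Cr2, Cd1d1, Cd9 and Myof (horizontal axes), with the limit of the gate as a dashed line. In both libraries Cd36, Nebl and Dnase1l3 were higher and Ighd, Vpreb3 and Cd200 lower in cells with 10 or more gate UMIs than in cells with 0.

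Gated cells differed from Fcer2a B cells in many genes beyond those of the rule. Of genes with a mean of at least 20 CPM over the compared sets and at least 50 UMIs, 400 of 4957 (8.07%) were at least 1.5-fold higher in gated cells of the wild-type library and 640 (12.9%) at least 1.5-fold lower. In the knock-in library 312 of 4812 (6.48%) were higher and 613 (12.7%) lower. The 2 libraries share no cells in this comparison. Of genes measured in both, 176 of 4572 (3.85%) were higher in both libraries, which is 50.1% of the wild-type and 63.1% of the knock-in calls, and 309 (6.76%) were lower in both, which is 52.6% of the calls of each library.

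Among the genes named by a rule of size, Cd36 had the highest ratio. Cd36, a scavenger receptor for lipids and oxidised lipoproteins, stood at 190 CPM in wild-type gated cells against 16.7 CPM in Fcer2a B cells (log2 ratio 3.51, 3.18 to 3.85) and at 119 against 17.2 CPM in the knock-in library (2.80, 2.34 to 3.26). A Cd36 UMI was found in 39.8% and 30.2% of gated cells, in 3.23% and 3.02% of Fcer2a B cells, and in 0.074% and 0.0749% of T cells, whose median depths were 3186 and 2693 UMIs. Within a shared depth range the gap was also seen, with log2 ratios of 3.21 and 2.04 among cells of 3000 to under 8000 UMIs. Id2, an inhibitor of E-protein transcription factors, stood at 159 against 37.1 CPM (2.10, 1.84 to 2.37) and at 144 against 42.3 CPM (1.76, 1.42 to 2.11). Ahr, a transcription factor activated by small aromatic ligands, stood at 136 against 26.3 CPM (2.37, 2.07 to 2.68) and at 87.3 against 28.0 CPM (1.64, 1.20 to 2.07). In both libraries the gated set was the higher one for all 3 of these genes, a shared direction that the choice of genes required.

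Stress-responsive and signalling genes followed. Atf3, a stress-induced transcription factor, stood at 765 against 188 CPM in the wild-type library and 581 against 203 CPM in the knock-in library, with log2 ratios of 2.03 and 1.52. Cd274, the gene of the checkpoint ligand PD-L1, stood at 138 against 37.2 CPM and 115 against 38.4 CPM (1.89 and 1.58). Ptpn22, a phosphatase that dampens antigen receptor signals, stood at 173 against 49.4 CPM and 144 against 56.3 CPM (1.81 and 1.35). Ankrd33b had log2 ratios of 1.64 and 1.41, and the counting intervals of Atf3, Cd274, Ptpn22 and Ankrd33b lay above 1.00 in both libraries. Cd274 and Ptpn22 restrain lymphocyte activation, but some genes of inhibitory receptors were lower in gated cells. Their ratios were -0.64 and -0.43 for Cd22, -0.75 and -0.40 for Cd72 and -1.09 and -0.53 for Btla. Of the list of B cell receptor and coreceptor genes, 2 of 22 were higher and 9 lower in the wild-type library. In the knock-in library 1 of 23 was higher and 5 were lower. Over all genes 8.07% and 6.48% were higher and 12.9% and 12.7% lower.

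Of the other named genes, Plac8 stood at 1582 against 611 CPM and 1929 against 666 CPM (1.37 and 1.53), and 95.3% and 94.5% of gated cells held its UMIs. Odc1, the first enzyme of polyamine synthesis, stood at 790 against 249 CPM and 728 against 241 CPM (1.67 and 1.59). Pdia4, a disulfide isomerase of the endoplasmic reticulum, stood at 108 against 40.9 CPM and 123 against 47.9 CPM (1.40 and 1.36). Within cells of 3000 to under 8000 UMIs, the log2 ratios of the 10 genes named as higher remained between 1.23 (Pdia4) and 3.21 (Cd36) in the wild-type library and between 1.06 (Ptpn22) and 2.04 (Cd36) in the knock-in library.

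**Figure D3:**
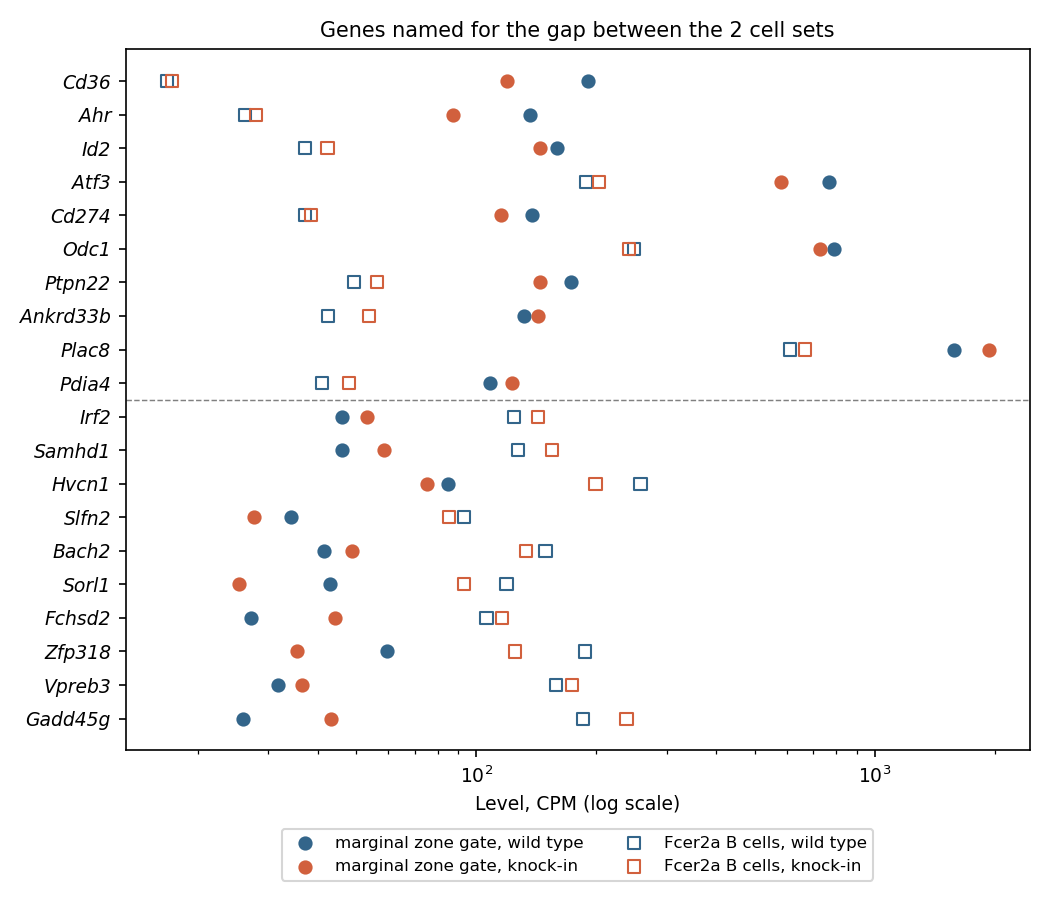
Level in CPM (horizontal axis, log scale) of the 10 genes named as higher and the 10 named as lower in gated cells, with filled circles for gated cells and open squares for Fcer2a B cells of each library. The choice of genes required the same direction in both libraries, and for every gene both circles lie on the same side of both squares.

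Other genes had ratios as large at lower levels, and were picked with their values in view. Nebl, which codes for the actin-binding protein nebulette, stood at 99.1 against 6.40 CPM in the wild-type library (log2 ratio 3.95, 3.44 to 4.50) and 68.5 against 3.17 CPM in the knock-in library (4.43, 3.53 to 5.46). Its UMIs were in 32.8% and 25.8% of gated cells, in 1.47% and 0.644% of Fcer2a B cells and in 3.62% and 4.34% of T cells. Dnase1l3, a secreted nuclease that degrades DNA in chromatin, stood at 124 against 14.1 CPM (3.14, 2.77 to 3.52) and 85.1 against 11.1 CPM (2.94, 2.38 to 3.52). The gated cells were the higher set for both genes in each library. After thinning to 1000 UMIs per cell, a Nebl UMI was found in 9.40% and 7.69% of gated cells against 0.393% and 0.130% of Fcer2a B cells, and a Dnase1l3 UMI in 9.73% and 8.79% against 1.03% and 0.978%.

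The list of marginal zone programme genes, chosen with earlier results of these data known, had 14 of 24 members measured in wild-type cells and 11 in knock-in cells. Members rare in Fcer2a B cells, such as Cd36 and Rgs10, reached the limit of 20 CPM through the gated set, so the counts and medians of the list describe it and support nothing. In the wild-type library 12 were at least 1.5-fold higher and 0 lower, with a median log2 ratio of 1.32 against -0.08 over all genes. In the knock-in library 10 were higher and 1, Notch2, was lower, with a median of 1.22 against -0.06. The shares over all genes were 8.07% and 6.48% higher and 12.9% and 12.7% lower. Rgs10, a regulator of G-protein signalling, stood at 88.1 against 9.84 CPM (3.16, 2.71 to 3.62) and 72.9 against 11.4 CPM (2.68, 2.11 to 3.27). Mzb1, a chaperone of the endoplasmic reticulum that helps fold IgM, stood at 464 against 203 CPM (1.20, 1.06 to 1.33) and 778 against 311 CPM (1.32, 1.18 to 1.46). S1pr3, the sphingosine-1-phosphate receptor known from marginal zone cells, was below the limits of the comparison, with 30 and 17 UMIs in gated cells and 14 and 15 in Fcer2a B cells. Its UMIs were in 8.70% and 8.24% of gated cells, in 0.636% and 0.965% of Fcer2a B cells, and in 0 of 1352 and 0 of 1335 T cells, for which a limit of 3 counts allows shares of up to 0.222% and 0.225%. Fcrl5, an Fc receptor-like protein of innate-like B cells, was also below the limits, at 29.8 against 3.12 CPM and 21.0 against 4.76 CPM. These levels rest on 46 and 19 UMIs in gated cells against 19 and 18 in the larger Fcer2a sets.

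Notch genes did not move as a group. Dtx1, a Notch-induced ubiquitin ligase, stood at 70.0 against 36.4 CPM (log2 ratio 0.94, 0.60 to 1.28) and 54.2 against 33.3 CPM (0.70, 0.19 to 1.19). In the knock-in cells of 3000 to under 8000 UMIs its ratio was 0.19. Notch2, the receptor itself, was lower in gated cells, at 62.2 against 87.9 CPM (-0.50, -0.83 to -0.18) and 53.1 against 87.8 CPM (-0.73, -1.20 to -0.29). Hes1, another Notch target, stood at 38.2 against 33.6 CPM in the wild-type library (0.18, -0.26 to 0.61) and at 15.5 against 23.5 CPM in the knock-in library, where it was under the limit of the comparison. Of the measured Notch pathway genes, 2 of 11 were higher (Dtx1 and Dtx3) and 1 lower (Lfng) in the wild-type library, and 3 of 7 higher (Dtx1, Dtx3 and Rbpj) and 1 lower (Notch2) in the knock-in library. The median was 0.18 in both. Of all genes compared, 8.07% and 6.48% were higher and 12.9% and 12.7% lower.

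Genes of the follicular B cell list, which covers surface receptors, IgD and transcription factors, were mostly lower in gated cells. Of the list, 13 of 14 measured genes were at least 1.5-fold lower in the wild-type library (median -1.11) and 9 of 13 in the knock-in library (median -0.92), and 0 were higher in either. Over all genes 12.9% and 12.7% were lower. Among cells of 3000 to under 8000 UMIs the median of the list in the knock-in library was -0.52. Ccr7, the receptor for T zone chemokines, stood at 312 against 599 CPM (-0.94, -1.08 to -0.80) and 291 against 589 CPM (-1.02, -1.21 to -0.83). Cd55, a complement regulator, stood at 97.8 against 326 CPM and 134 against 349 CPM (-1.74 and -1.39). The gated set was the lower one for both genes in each library.

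Other migration genes gave a mixed picture. Gpr183, the oxysterol receptor that guides B cells to the follicle edge, stood at 104 against 185 CPM (-0.83, -1.07 to -0.59) and 85.1 against 145 CPM (-0.77, -1.13 to -0.42). Its knock-in ratio was only -0.15 among cells of 3000 to under 8000 UMIs. Klf2, a transcription factor that controls trafficking receptors, had ratios of -0.59 and -0.82. Within that depth range they were -0.43 and -0.45, within 1.5-fold. S1pr1, the sphingosine-1-phosphate receptor of egress, stood at 242 against 241 CPM (0.01, -0.16 to 0.17) and 206 against 177 CPM (0.21, -0.03 to 0.45). Cxcr5, the follicle homing receptor, had ratios of -0.24 (-0.54 to 0.06) and -0.46 (-0.94 to -0.01). Of the integrins, Itgb1 was higher (1.00 in both libraries) and Itgb7 lower (-1.24 and -1.33). Itga4 was also called lower in both libraries, and Itgal was called higher in the knock-in library. Of the migration list 2 of 19 measured genes were higher and 10 lower in the wild-type library, and 3 of 18 higher and 5 lower in the knock-in library. Among all genes 8.07% and 6.48% were higher and 12.9% and 12.7% lower.

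**Figure D4:**
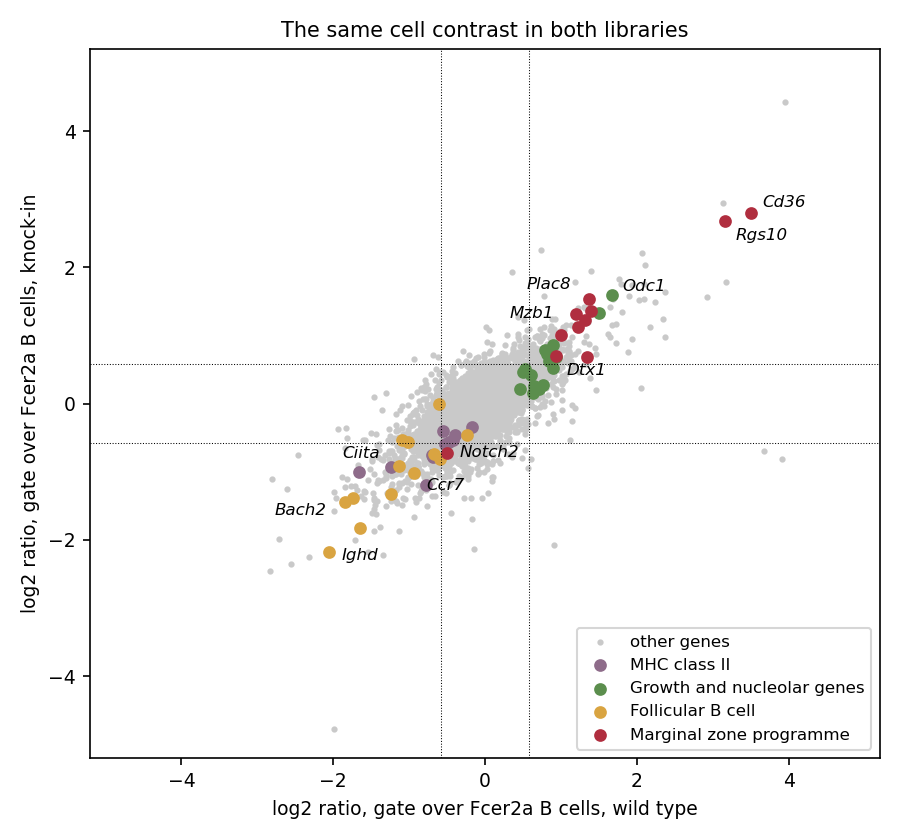
Log2 ratio of gated over Fcer2a B cells in the wild-type library (horizontal axis) and in the knock-in library (vertical axis) for 4572 genes measured in both, 4 of which lie outside the axes, with 4 gene lists in colour and dotted lines at 1.5-fold. Genes of the marginal zone programme lie at the upper right except Notch2, and those of the follicular list at the lower left or close to 0.

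Immunoglobulin RNA separated the sets by isotype. Ighd, the heavy chain of IgD, stood at 149 against 621 CPM (log2 ratio -2.06, -2.26 to -1.87) and 137 against 619 CPM (-2.18, -2.45 to -1.91). Ighm, the heavy chain of IgM, stood at 1732 against 2014 CPM (-0.22, -0.28 to -0.16) and 2155 against 1767 CPM (0.29, 0.21 to 0.36), so its direction differed between the libraries and neither passed 1.5-fold. Ighd was 7.92% and 5.98% of the summed Ighm and Ighd UMIs of gated cells against 23.6% and 26% in Fcer2a B cells. Of gated cells with a heavy chain UMI, 292 of 296 and 172 of 179 had Ighm as the leading isotype, and 1 and 4 had an Ighg gene.

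Lambda light chains led in 50 of 299 wild-type gated cells (16.7%, 12.7% to 21.4%) and 17 of 182 knock-in gated cells (9.34%, 5.54% to 14.5%). In Fcer2a B cells the shares were 9.25% (8.03% to 10.6%) and 9.47% (8.06% to 11.0%). The wild-type gated share lay above the others, and its interval overlapped that of the knock-in gated cells.

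Antigen presentation genes of class II were lower in gated cells. Of 12 measured genes, 6 were at least 1.5-fold lower in the wild-type library (median -0.62) and 7 in the knock-in library (median -0.67), with 0 higher. The lower shares over all genes were 12.9% and 12.7%. Among cells of 3000 to under 8000 UMIs the knock-in median of the class II genes was -0.45. Ciita, the master regulator of the class, stood at 32.4 against 102 CPM (-1.66, -2.11 to -1.24) and 34.3 against 68.8 CPM (-1.01, -1.59 to -0.46). H2-Ob, a subunit of the peptide-loading modulator H2-O, stood at 251 against 595 CPM (-1.24) and 326 against 622 CPM (-0.93). Among the presenting chains the ratios were -0.42 and -0.54 for H2-Aa, -0.17 and -0.35 for H2-Eb1 and -0.70 and -0.76 for H2-Eb2. H2-Oa, the partner of H2-Ob, had ratios of -0.40 and -0.46, within the range of the presenting chains.

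B lineage transcription factors leaned lower, with 13 of 32 lower and 3 higher in the wild-type library (median -0.41) and 9 of 32 lower and 2 higher in the knock-in library (median -0.39). Over all genes 12.9% and 12.7% were lower and 8.07% and 6.48% higher, so the counts of higher factors were near the background. Bach2, a repressor of plasma cell differentiation, stood at 41.5 against 149 CPM (-1.84, -2.23 to -1.48) and 48.6 against 133 CPM (-1.45, -1.93 to -1.0). Bcl6, the germinal centre factor, stood at 25.9 against 59.7 CPM (-1.20) and 22.1 against 42.9 CPM (-0.96). Ebf1, a factor of B cell identity, had ratios of only -0.12 and -0.27. The plasma cell markers outside the gate, led by Irf4, summed to 258 and 167 CPM in gated cells against 195 and 129 CPM in Fcer2a B cells, with 1 of 6 at 0 (Tnfrsf17, with a limit of 3 UMIs). Irf4, a factor that activated B cells also use, had ratios of 0.11 and 0.41. Slpi, a protease inhibitor, stood at 40.2 against 6.89 CPM in the wild-type library, where it was called higher, and at 5 UMIs in knock-in gated cells. Sdc1, which codes for the plasma cell surface protein syndecan-1, gave 3 and 1 UMIs in gated cells.

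The 10 genes named as lower included Bach2 and 9 others. Gadd45g, a stress-induced growth regulator, had the largest gap, at 25.9 against 185 CPM (-2.83, -3.33 to -2.38) and 43.1 against 238 CPM (-2.46, -2.97 to -2.0). Vpreb3, which codes for a protein of immature and naive B cells, stood at 31.7 against 158 CPM (-2.32, -2.76 to -1.90) and 36.5 against 174 CPM (-2.25, -2.80 to -1.75). Both were lower in gated cells by a gap far wider than the counting intervals. Zfp318, needed for IgD expression, had ratios of -1.65 and -1.82, alongside the lower Ighd. Sorl1 (-1.47 and -1.87), Slfn2 (-1.44 and -1.62), Hvcn1 (-1.60 and -1.40), Irf2 (-1.43 and -1.43), Samhd1 (-1.47 and -1.41) and Fchsd2 (-1.96 and -1.39) completed the set. Among cells of 3000 to under 8000 UMIs the knock-in ratio of Fchsd2 was -0.57, within 1.5-fold.

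Early antigen-response genes were split. In the wild-type library 5 of 24 were higher and 9 lower (median -0.24), and in the knock-in library 3 were higher and 10 lower (median -0.43). Across all genes 8.07% and 6.48% were higher and 12.9% and 12.7% lower. Nr4a3, a nuclear receptor induced by antigen receptor signals, stood at 90.7 against 33.6 CPM (1.43, 1.11 to 1.75) and 46.4 against 17.7 CPM (1.39, 0.80 to 1.97). Nfkbia, the inhibitor of NF-kB, stood at 158 against 527 CPM (-1.74, -1.93 to -1.55) and 170 against 444 CPM (-1.38, -1.63 to -1.14). Junb had ratios of -1.06 and -1.40, whereas Jun had 1.03 and 0.61.

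Genes of growth and ribosome building were higher. In the wild-type library 13 of 16 were at least 1.5-fold higher (median 0.78) and in the knock-in library 7 of 16 (median 0.51), with 0 lower in either. The higher shares over all genes were 8.07% and 6.48%. Srm, a polyamine synthase, stood at 77.1 against 27.2 CPM (1.5, 1.15 to 1.85) and 79.6 against 31.7 CPM (1.33, 0.88 to 1.76). Npm1, a nucleolar protein, stood at 1617 against 914 CPM (0.82) and 1748 against 1057 CPM (0.73). Myc stood at 201 against 130 CPM (0.63, 0.44 to 0.82) and 189 against 169 CPM (0.16, -0.09 to 0.41), and its ratios were 0.86 and 0.66 among cells of 3000 to under 8000 UMIs. Cell cycle genes did not accompany them in a steady way: their summed level was 236 and 262 CPM in gated cells against 125 and 213 CPM in Fcer2a B cells, with 22.8% and 21.9% of the gated UMIs in 1 cell.

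Secretory genes had small medians as a list, 0.20 and 0.05. In the wild-type library 4 of 24 were higher and 1 lower, and in the knock-in library 3 of 25 were higher and 2 lower. Over all genes 8.07% and 6.48% were higher and 12.9% and 12.7% lower. Mzb1 and Pdia4 were called higher in both libraries, as was Edem1, a factor of endoplasmic reticulum quality control (0.70 and 0.63). The wild-type ratio of Edem1 was -0.30 after thinning to 1000 UMIs. Of the pattern-recognition and TACI receptor list, Tlr7, the endosomal receptor of single-stranded RNA, was higher, at 35.0 against 15.4 CPM (1.18, 0.67 to 1.68) and 36.5 against 10.6 CPM (1.79, 1.07 to 2.49). Cd180, a Toll-like homologue of B cells, had ratios of 0.48 and 0.37. Tnfrsf13b, the gene of TACI, had ratios of -0.07 and 0.40, and Tnfrsf13c, the gene of the BAFF receptor, stood at 47.9 against 169 CPM (-1.82, -2.18 to -1.48) and 104 against 148 CPM (-0.51, -0.84 to -0.19).

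Il10, the gene of an anti-inflammatory cytokine that some marginal zone and related B cells are known to make, was picked with its values in view and was below the limit of the comparison. It gave 30 UMIs in 24 of 299 wild-type gated cells (8.03%) and 19 UMIs in 14 of 182 knock-in gated cells (7.69%). In Fcer2a B cells it gave 1 UMI in 2044 cells and 2 UMIs in 1554 cells. The log2 ratios of the CPM levels were 6.89 (4.30 to 12.24) and 5.31 (3.26 to 8.46). T cells, some of which make the cytokine, held an Il10 UMI in 1.92% and 2.47%. The chemokine gene Ccl3 stood at 72.6 against 8.04 CPM (3.17) and 82.9 against 24.1 CPM (1.78), but 1 cell held 42.7% of its knock-in gated UMIs. Ltb, a subunit of lymphotoxin, was lower, at 84.2 against 272 CPM (-1.69) and 141 against 342 CPM (-1.27).

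Markers of other cells were present in gated cells, some of them in few cells. The summed T cell markers outside the gate stood at 51.8 and 54.2 CPM in gated cells against 43.6 and 56.3 CPM in Fcer2a B cells, with 1 of 9 (Cd4) and 2 of 9 (Cd8b1 and Bcl11b) at 0. Macrophage markers stood at 63.5 and 43.1 CPM against 23.1 and 33.6 CPM, with 3 and 5 of 11 at 0, among them Vsig4 and Siglec1 in both libraries. Neutrophil markers stood at 785 CPM in wild-type gated cells and 50.8 CPM in knock-in gated cells, against 58.1 and 82.5 CPM in Fcer2a B cells, with 3 of 8 at 0 in each gated set, Ly6g and Camp in both. The wild-type neutrophil signal sat in few cells, since 18 of 299 held any such UMI and 8 held at least 5. Haemoglobin and other erythroid markers stood at 304 CPM in wild-type gated cells, with 99.4% of the UMIs in 1 cell, and at 15.5 CPM in knock-in gated cells, against 19.7 and 2259 CPM in Fcer2a B cells, where 1 knock-in cell held 89.4%. Monocyte markers, led by Lyz2, stood at 166 and 66.3 CPM against 111 and 180 CPM. Altogether 21 wild-type and 9 knock-in gated cells held at least 5 UMIs of another cell type's list. Without those cells the log2 ratios of Cd36 were 3.64 and 2.81 and those of Ighd -2.09 and -2.17.

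Between the libraries, gated cells differed by at least 1.5-fold in more genes than Fcer2a B cells did, though they also rest on fewer UMIs. In gated cells 338 of 4691 genes (7.21%) were higher in the knock-in library and 496 (10.6%) lower. In Fcer2a B cells 169 of 4983 (3.39%) were higher and 236 (4.74%) lower, which is 8.13% in either direction against 17.8% in gated cells. Thinned to 1000 UMIs per cell, with fewer genes passing the limit, the gated counts were 124 higher and 122 lower. These are differences between 2 libraries and cannot be told apart from differences between the mice or preparations behind them.

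Interferon-linked genes past 1.5-fold between the gated sets were few in number, and all were higher in the knock-in library. Of the type I interferon list 12 of 42 genes present in the data were measured. Of these, 2 (Irf7 and Ly6a) were higher in the knock-in library and 0 lower, against 7.21% higher and 10.6% lower over all genes. The median was 0.35 against -0.04 over all genes. In Fcer2a B cells 1 of 13 was higher and the median was 0.15. Ly6a, a surface protein induced by interferon, stood at 207 CPM in gated cells of the wild-type library and 354 CPM in those of the knock-in library (0.77, 0.54 to 1.00), and at 120 and 216 CPM in Fcer2a B cells (0.85). Irf7, a transcription factor of the type I response, stood at 18.8 and 28.7 CPM from 29 and 26 UMIs (0.61, -0.21 to 1.43). Isg15, an antiviral ubiquitin-like modifier, was not higher, at 54.4 and 47.5 CPM in gated cells (-0.20, -0.76 to 0.35). In Fcer2a B cells it was under the limit of the comparison, with a ratio of 1.21. The list median was 0.71 without gated cells that held S100a6 and 0.57 without those that held at least 5 UMIs of another cell type's markers, and it lay between 0.12 and 0.71 over the alternatives.

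In gated cells the interferon gamma list had 3 of 14 genes higher in the knock-in library (Psmb8, Psmb9 and Socs1) and 0 lower, with a median of 0.23. Over all genes 7.21% were higher and 10.6% lower. In Fcer2a B cells 2 of 17 were higher, against 3.39% over all genes, and 0 lower, with a median of 0.23. Psmb8, a catalytic subunit of the immunoproteasome, stood at 219 and 385 CPM (0.81, 0.59 to 1.03), against 195 and 363 CPM in Fcer2a B cells (0.90). Of the class I list 1 of 12 was higher, near the 7.21% over all genes. It was H2-T22, a non-classical class I gene, at 57.7 and 96.2 CPM (0.74, 0.29 to 1.18) against 60.9 and 98.9 CPM in Fcer2a B cells (0.70). The list median was 0.23 in gated cells and 0.33 in Fcer2a B cells, and for class II it was 0.13 and 0.19. Of the class II genes 0 of 12 were past 1.5-fold in either set, against 17.8% and 8.13% over all genes. The values in gated and in Fcer2a B cells were thus close for these genes, and the difference between the sets was not tested.

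Marginal zone programme genes in gated cells were uneven between the libraries. In the knock-in library 1 of 17 was higher (Mzb1) and 5 were lower (Hes1, Cd36, Sema7a, Dph5 and Zc3h12c), against 7.21% and 10.6% over all genes. The median was -0.27 against -0.04 over all genes. After thinning to 1000 UMIs the ratio of Sema7a was 0.25. Mzb1 stood at 464 and 778 CPM (0.74, 0.59 to 0.90), and was also higher in knock-in Fcer2a B cells (0.62). Cd36 stood at 190 and 119 CPM (-0.67, -1.01 to -0.35), with a ratio of 0.04 in Fcer2a B cells, where it was under the limit of the comparison. Ahr stood at 136 and 87.3 CPM (-0.64, -1.03 to -0.26), with 0.10 in Fcer2a B cells. Hes1 was 59 UMIs and 14 UMIs (-1.30, -2.26 to -0.45). Cells that met the gate with 1 gene were 22.4% and 33.0% of the gated cells, and in them Cd36 stood at 103 and 94.1 CPM. With at least 2 gate genes required, the list median was -0.35 and the ratio of Cd36 -0.68.

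Tnfrsf13c had ratios of opposite sign in the 2 cell sets. It stood at 47.9 CPM in gated cells of the wild-type library and 104 CPM in those of the knock-in library (1.12, 0.66 to 1.58), and at 169 and 148 CPM in Fcer2a B cells (-0.20). The knock-in gated cells were therefore nearer to Fcer2a B cells in this gene than the wild-type gated cells were. Cd72, an inhibitory coreceptor of the B cell receptor, stood at 105 and 210 CPM (1.00, 0.69 to 1.31), and at 176 and 277 CPM in Fcer2a B cells (0.66). Vdac3 (1.14), Prdx2 (1.08), Evi2a (1.01), Fam173a (1.01) and Blvrb (1.32) were the other named genes higher in the knock-in gated cells, and all 5 were also higher in knock-in Fcer2a B cells, by 0.37 to 0.95.

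S100a6, a calcium-binding protein on the list of B-1 markers, had the highest named ratio. It stood at 113 CPM in gated cells of the wild-type library and 443 CPM in those of the knock-in library (1.97, 1.71 to 2.23). In Fcer2a B cells it stood at 68.1 and 92.6 CPM (0.44). Few cells carried it: 30 of 299 wild-type (10.0%, 6.87% to 14.0%) and 27 of 182 knock-in gated cells (14.8%, 10.0% to 20.8%) held a UMI, against 7.53% and 8.37% of Fcer2a B cells, and 1 knock-in cell held 32.2% of the UMIs. After thinning to 1000 UMIs the shares were 5.37% and 8.24% of gated cells and 3.53% and 4.95% of Fcer2a B cells. It moved with cells that met the gate with a single gene, at 346 and 871 CPM there. In gated cells that held S100a6, Cr2 stood at 98.9 CPM against 229 CPM in those without it in the wild-type library. In the knock-in library Cr2 stood at 6.44 against 247 CPM. Cd1d1 and Myof were also lower with S100a6 in both libraries, and Cd9 was higher. Cd36 was lower with S100a6 in the wild-type library (88.5 against 205 CPM) and higher in the knock-in library (167 against 109 CPM). Without gated cells that held S100a6, the wild-type ratios of S100a8 and S100a9 over Fcer2a B cells were -3.89 and -4.47 instead of 3.91 and 3.68. Most wild-type gated UMIs of these neutrophil genes thus lay in cells that held S100a6. Whether the gated cells that held S100a6 are marginal zone B cells was not tested. The B-1 markers outside the rule, with S100a6 leading, summed to 186 CPM in gated cells of the wild-type library and 575 CPM in those of the knock-in library, against 90.7 and 121 CPM in Fcer2a B cells, with 0 of 6 at 0. Required to have at least 2 of the 4 gate genes, gated cells gave a ratio of 1.98 for S100a6 between the libraries, but -0.14 instead of 0.74 for S100a6 against Fcer2a B cells in the wild-type library. The ratio between the libraries was 2.88 without cells holding at least 5 UMIs of another cell type's markers. It was 2.22 among cells of 3000 to under 8000 UMIs.

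Lgals1 and Ccl5 were named as higher but rested on few cells. Lgals1, the gene of galectin-1, stood at 29.2 and 76.3 CPM (1.39, 0.82 to 1.96), with 40.0% and 29.0% of its UMIs in 1 cell of each library. Ccl5, a chemokine of memory T and NK cells, stood at 97.2 and 232 CPM (1.26, 0.95 to 1.57), with 41.3% and 51.9% in 1 cell. With at least 2 gate genes required, the ratios of Lgals1 and Ccl5 turned to -0.16 and -3.28. In cells of 3000 to under 8000 UMIs they were 1.74 and 1.64. T cell markers stood at 51.8 and 54.2 CPM, and NK markers, led by Gzma, at 34.3 and 89.5 CPM with Ncr1 at 0 in both libraries. Without the cells that held at least 5 UMIs of another cell type's markers, the ratios of Lgals1 and Ccl5 were 2.80 and 3.24.

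The largest named ratios toward the wild-type library were those of myeloid genes. S100a8 and S100a9, subunits of the neutrophil protein calprotectin, stood at 330 and 420 CPM in wild-type gated cells and at 17.7 and 28.7 CPM in knock-in gated cells (-4.22 and -3.87). They were found in 10 and 12 wild-type and 2 and 1 knock-in gated cells. Lyz2, the lysozyme of macrophages and neutrophils, stood at 126 and 32.1 CPM (-1.97), with 54.1% and 58.6% of its UMIs in 1 cell. Without cells with at least 5 UMIs of another cell type's markers the ratios of S100a8 and S100a9 were 0.73 and 0.32, and that of Lyz2 was -1.59.

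Several of the named genes lower in the knock-in gated cells were spread over many cells. Mast4, a kinase, stood at 390 and 159 CPM (-1.29, -1.57 to -1.03), and Irs2, an adaptor of insulin and cytokine receptors, at 283 and 125 CPM (-1.18, -1.49 to -0.88). Fyn, a Src-family kinase, stood at 147 and 61.9 CPM (-1.25, -1.70 to -0.82), and the mitochondrial tRNA ligase gene Lars2 at 207 and 81.8 CPM (-1.34, -1.73 to -0.97). In each of these the highest single cell held at most 10.3% of the UMIs. In Fcer2a B cells the ratios of the 4 genes were also below 0, at -0.72, -0.31, -0.79 and -0.23. Susd6 (-1.28), Lrrc8d (-1.21) and Sun2 (-1.20) completed the named set.

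Of the growth genes, 5 of 16 were lower in the knock-in than in the wild-type gated cells and 0 higher (median -0.18), against 10.6% lower over all genes. Ddx21, a nucleolar RNA helicase, stood at 285 and 129 CPM (-1.14, -1.45 to -0.84), and Ncl, the gene of nucleolin, at 1390 and 870 CPM (-0.68, -0.80 to -0.56). In Fcer2a B cells their ratios were -0.76 and -0.48. Nop56, Nop58 and Gnl3 were the other 3, at -0.72, -0.64 and -0.68, while Npm1 and Srm had ratios of 0.11 and 0.05.

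**Figure D5:**
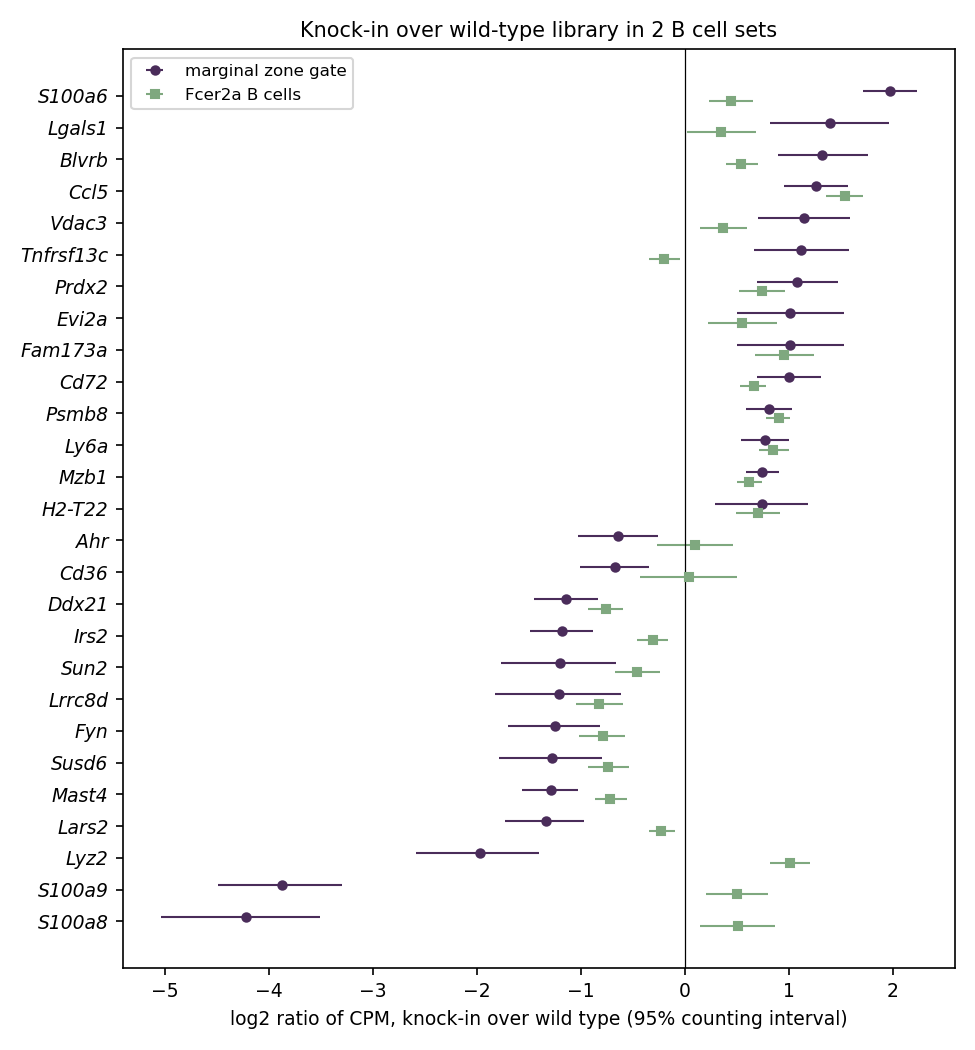
Log2 ratio of CPM, knock-in over wild-type library (horizontal axis), in gated cells (circles) and Fcer2a B cells (squares) for the named genes, with exact 95% intervals for counting error. Ly6a, Psmb8, Mzb1 and H2-T22 lie at similar values in both sets, and S100a8, S100a9, Lyz2 and Tnfrsf13c lie on opposite sides of 0.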

How the data were processed

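Single-cell RNA was measured in 1 wild-type and 1 M694I knock-in spleen library. The authors deposited 1 matrix of UMI counts per library, raw and not normalized. The file headers give Cell Ranger 6.1.2, while Cell Ranger 7.1.0 is listed with Seurat 5.0.3 and mm10 in the submitters' processing notes. Annotation and barcode selection: not given in the sources used here. Libraries were taken from GEO's labels. No cells were removed as doublets in the main analysis; Scrublet in scanpy 1.11.5 (expected rate 8%) marked 4 wild-type and 1 knock-in gated cells.

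Cells were chosen by the UMI rule in the report, in Python 3.11.15 with numpy 2.4.6, scipy 1.17.1 and pandas 2.3.3, and figures were drawn with matplotlib 3.10.9. UMIs were summed per library and cell set and scaled to CPM by the set's total. Intervals are at 95% and cover counting error only (exact Clopper-Pearson for shares, conditional binomial for ratios), and a set at 0 was placed at a floor of 3 counts. Genes needed a mean of 20 CPM over the compared sets and 50 summed UMIs, and were called at 1.5-fold. There was no significance test, since cells are not replicates of a genotype. The calling script was tested on simulated data. Thinning drew 1000 UMIs per cell without replacement. Of 32285 features, 32158 (99.6%) matched GENCODE M21 on GRCm38 by Ensembl ID.

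Genes were named by size: the 10 highest and 10 lowest ratios (for the cell contrast, by the ratio nearer 0 of the 2 libraries) with a mean of at least 50 CPM and at least 100 UMIs, up to 4 genes per list, and a set of known marginal zone, follicular and interferon genes. For the cell contrast the sign also had to be the same in both libraries. The ranking left out gate genes, mitochondrial and ribosomal protein genes, haemoglobins, sex-linked genes and antigen receptor segments. Nebl, Dnase1l3, Il10, Cd200, Sema7a, Dph5, Zc3h12c and other list members named only as examples or in counts were picked with their values in view. The members and the lists were chosen with earlier results of these data known. Mx1, Mx2 and some other list genes are not reported here. TMM factors came from edgeR 4.0.16 in R 4.3.3.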

Additional observations from a re-analysis of the deposited data

Results flagged for a closer look

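The genes here had ratios of opposite sign in 2 cell sets or 2 libraries, each beyond 1.5-fold, and none of these differences was tested, since each library is a single sample. Cd200, a surface ligand that restrains myeloid cells, was higher in the knock-in than in the wild-type gated cells (log2 ratio 0.82, 0.03 to 1.61, from 30 and 29 UMIs) and lower in knock-in Fcer2a B cells (-0.89). In both libraries it was lower in gated than in Fcer2a B cells, at 18.8 against 132 CPM in the wild-type and 33.2 against 71.4 CPM in the knock-in library. Its ratio between the gated sets was -0.20 with at least 2 and -0.37 with at least 5 UMIs of the gate genes, so its sign there depended on the gate.

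Lyz2 was lower in knock-in gated cells (-1.97) and higher in knock-in Fcer2a B cells (1.01). Against Fcer2a B cells it was higher in gated cells of the wild-type library (0.91) and lower in those of the knock-in library (-2.07). S100a8 and S100a9 were likewise higher in wild-type gated cells (3.91 and 3.68) and lower in knock-in gated cells (-0.82 and -0.70) than in the Fcer2a B cells of the same library. Of the neutrophil marker UMIs, 25% of those in wild-type and 93.5% of those in knock-in gated cells lay in 1 cell.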

How the results depend on the processing

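Each library is 1 sample, so no replicate could be left out. No paired analysis was possible because each group holds 1 library. Limits on UMIs and genes per cell, removal of doublets, TMM factors and a total without immunoglobulin left every count, list median and share on the same side and every called direction as it was. Without an expression filter the higher and lower counts were 4856 and 2471 (gated over Fcer2a, wild type), 4487 and 2187 (knock-in), 2373 and 960 (both libraries) and 3706 and 2578 (knock-in over wild type in gated cells), and at 2-fold they were 125 and 190, 81 and 162, 50 and 79, and 42 and 100. The count of genes higher in knock-in gated cells was 215 at a 5% mitochondrial limit, 181 with at least 5 gate UMIs and 124 after thinning, which also gave 122 lower. Thinning leaves fewer genes above the filter. With at least 5 gate UMIs 486 genes were higher than in Fcer2a B cells in the knock-in library.

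The log2 ratio of the share was -0.84 with at least 5 gate UMIs, -0.02 after thinning before the gate and -0.12 in cells of 3000 to under 8000 UMIs, where the knock-in class II and follicular medians were -0.45 and -0.52. The type I interferon median between gated sets was 0.71 without cells that held S100a6 and 0.57 without cells holding at least 5 UMIs of another cell type's list. The depth range, those exclusions and the omission of each gene's highest cell were chosen after seeing the data.

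Signs that turned were mostly those of genes resting on few cells, and the cause was not tested. Gated over Fcer2a in the wild-type library, Lyz2 was -1.16 at a 5% mitochondrial limit, -0.23 in cells of 3000 to under 8000 UMIs, -0.57 without S100a6 cells and -0.27 without the cells with other markers. S100a8 was -3.89 and -1.75 in the last 2 settings and S100a9 -4.47 without S100a6 cells. S100a6 was -0.14 with at least 2 gate genes and Edem1 -0.30 after thinning. In the knock-in library, S100a8 and S100a9 were 0.39 and 0.51 with at least 5 gate UMIs and 1.07 and 2.07 without cells with other markers. S100a8 was 0.15 after thinning, and S100a9 0.13 with cells weighted equally. Lgals1 was -0.30 with at least 2 gate genes and -0.47 in cells of 3000 to under 8000 UMIs, where the class I median was 0.02.

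Between gated sets, Cd200 was -0.20 and -0.37 with at least 2 and 5 gate UMIs. With at least 5, Ccl5 was -2.60 and the transcription factor median 0.02. With at least 2 gate genes Ccl5 was -3.28 and Lgals1 -0.16. After thinning Nr4a2 was 0.03 and Sema7a 0.25. S100a9 was 1.44 without S100a6 cells, and without cells with other markers S100a8 was 0.73 and S100a9 0.32. At the depth of gated cells, genes under a mean of 20 CPM were not compared, and no interval covers differences between mice.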
